A study of Mus musculus with 7 samples.

Results

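The 39 genes described here encode the actin filament, the proteins that build, cap, cut and bundle it, the myosin that pulls on it and the proteins that tie it to the membrane and to integrins. They were taken from a list of known cytoskeletal genes, written with earlier results of these data known, and each had a row in all 7 count tables. The tables of run 1 list only genes with a UMI, so asking for a row was a filter on detection there. Run 1 listed 9112 gene symbols over its tissues and run 2 listed 28692. Values are counts of UMIs, unique molecular identifiers that each mark 1 captured RNA molecule. Neutrophils sorted by flow cytometry as live CD11b+ Ly6G+ cells came from male C57BL/6J mice. Blood, bone marrow and spleen of untreated mice aged 6 to 8 weeks were each captured in 2 independent runs. A separate capture held 5 conditions told apart by hashtag antibodies. These were blood of healthy mice, blood and joint lavage of mice at day 7 after 2 intraperitoneal injections (days 0 and 2) of 150 µl arthritogenic K/BxN serum, lung lavage 3 hours after 25 ng IL-1β into the nose, and peritoneal lavage 3 hours after 25 ng IL-1β into the peritoneum. The treated mice were 8 weeks old. By the study's methods each library or condition pooled cells of 3 mice, so that a healthy tissue had 2 pools and an inflamed condition had 1.

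Neutrophils move by pushing out a sheet of branched actin at the front and squeezing the rear with myosin II. Thymosins and profilin hold the store of actin monomers, the Arp2/3 complex branches new filaments when WASP activates it, capping proteins and VASP set how long filaments grow, and cofilin, destrin, Wdr1 and coronin take them apart again. Plastin, Lsp1 and filamin join filaments into bundles and nets, ERM and MARCKS proteins tie them to the plasma membrane, and talin and vinculin couple them to integrins.

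Among cells of healthy tissues, those with 3% or more of their UMIs from S100a8 and S100a9 were kept (12755 of 16907). In the capture of inflamed conditions, cells assigned to a neutrophil reference by the authors were kept (4852 of 4856). Besides S100a8 and S100a9, which chose the healthy cells and are no check of them, 13 other markers of neutrophils were looked at. All 13 were detected in each of the 11 libraries or conditions, at a summed level of 33980 to 144052 counts per 1000000 UMIs (CPM) in healthy libraries, against 1298 to 6217 in the cells left out of them, and of 19045 to 42395 CPM in the inflamed capture. The kept cells summed to 1360064 to 9104133 UMIs per healthy library and to 942688 to 10293966 per inflamed or control condition. At most 27 barcodes of kept cells were shared by a pair of libraries. Several libraries stood apart. The 2 spleen libraries differed in granule genes, as the secondary granule genes Camp, Ngp, Ltf and Lcn2 gave 10.2% of UMIs in run 1 and 1.67% in run 2, against 10.3% and 7.44% in bone marrow and 2.61% and 0.435% in blood. Blood of run 2 held 30352 CPM of erythroid marker genes, against 254 to 915 in the other healthy libraries. Spleen of run 2 held 903 CPM of B cell markers and 202 of T cell markers, against 4.47 to 330 and 29.0 to 44.3 in the other healthy libraries. In blood, bone marrow and spleen, run 1 tables held rows for 4, 4 and 5 of 8 B cell markers and 4, 1 and 7 of 10 T cell markers. Run 2 tables held rows for all, so the sums of run 1 cover fewer genes. The filter on lymphocyte marker UMIs used below has the same limit. In the capture of inflamed conditions 61 to 155 cells per condition had under 1000 UMIs, and in these the 39 genes gave 2.46% to 2.74% of UMIs and Malat1, a nuclear RNA, gave 7.07% to 10.8%.

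The 39 genes took the largest share of UMIs in healthy blood. They gave 8.62% and 8.21% of UMIs in blood of runs 1 and 2 (mean 8.41% ± 0.296, SD, n = 2), 6.65% and 6.86% in bone marrow (6.76% ± 0.153, SD, n = 2) and 7.05% and 7.66% in spleen (7.36% ± 0.431, SD, n = 2). Both blood libraries lay above the bone marrow and spleen libraries. This order depended on what else the cells held. S100a8 and S100a9 gave 36.0% and 35.5% of UMIs in bone marrow, against 25.4% and 17.9% in blood. Of UMIs other than these 2 genes, the share was 11.6% and 9.99% in blood, 10.4% and 10.6% in bone marrow, with 10.7% and 9.35% in spleen, and the range of blood overlapped those of bone marrow and spleen. In the capture of inflamed conditions the share was 7.68% in healthy blood (exact 95% binomial interval 7.63% to 7.73%), 7.00% in arthritic blood (6.97% to 7.03%), 6.19% in the arthritic joint (6.18% to 6.20%), 5.53% in the IL-1β lung (5.49% to 5.57%) and 6.74% in the IL-1β peritoneum (6.69% to 6.79%). The lavaged sites were below both bloods. Of UMIs other than S100a8 and S100a9, the order of the bloods turned, with 8.91% in healthy and 9.32% in arthritic blood, and the joint (7.37%), lung (6.67%) and peritoneum (8.11%) were again below both. These intervals cover counting error only, and there was no replicate of any inflamed condition. Across cells thinned to 500 UMIs, the middle 80% of cells ran from 5.6% to 12.2% in blood of run 2, from 4.8% to 10.8% in bone marrow of run 2 and from 2.0% to 7.6% in the IL-1β lung. Counting at this depth alone gives an SD of 1.24, 1.17 and 0.972 percentage points in these, against 2.74, 2.45 and 2.18 observed. Cells with under 1000 UMIs, where the share was 2.46% in the lung, were 24.7% of lung cells, 72.8% in blood of run 2 and 0 in bone marrow of run 2. In lung cells with 1000 UMIs or more, thinned alike, the middle 80% ran from 3.8% to 8.0% and the SD was 1.66, against 1.05 from counting.

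**Figure D1:**
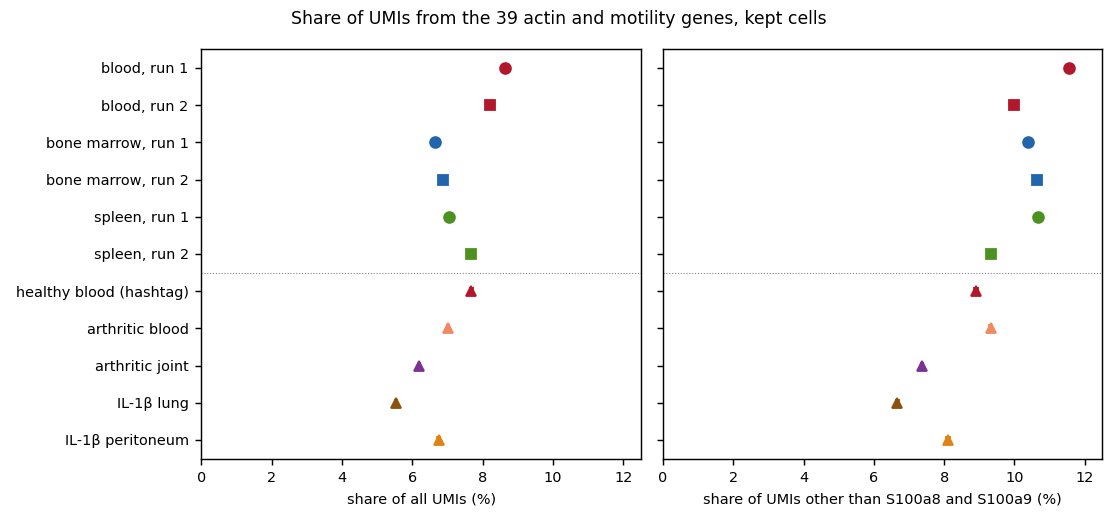
Share of UMIs from the 39 genes in each library or condition (percent, horizontal axis), of all UMIs on the left and of UMIs other than S100a8 and S100a9 on the right, with circles for run 1, squares for run 2 and triangles for the hashtag conditions. Bars are exact 95% binomial intervals, mostly smaller than the symbols. Blood lies highest among healthy tissues at left (8.62% and 8.21%) but overlaps bone marrow at right, and the IL-1β lung is lowest of the hashtag conditions in both.

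A few members made up most of this share. Tmsb4x, thymosin beta 4, which binds actin monomers and keeps them from polymerising, stood at 44199 and 33770 CPM in blood, 30758 and 26658 in bone marrow, with 31543 and 32260 in spleen. Actb, beta actin itself, stood at 16385 and 18743 CPM in blood, 12843 and 14751 in bone marrow, with 15694 and 14746 in spleen. Together these 2 genes gave 60.3% to 70.3% of the members' UMIs in healthy libraries. Pfn1, profilin 1, which feeds monomers to growing filament ends, followed at 5226 and 4801 CPM in blood, 5799.7 and 6062 in bone marrow, with 5357 and 4878 in spleen. Arpc1b, a subunit of the Arp2/3 complex, stood at 1759 and 1871 CPM in blood, 1404.5 and 1342 in bone marrow, with 1499.7 and 1819.7 in spleen. Coro1a, the leukocyte coronin, stood at 1997 and 1638 CPM in blood, 1391 and 1253 in bone marrow, with 1483 and 1526 in spleen. None of these 5 genes passed the test in any pair of healthy tissues (edgeR quasi-likelihood test, Benjamini-Hochberg FDR of 0.05). At the other end Evl, a relative of VASP, was at 0.942 to 2.58 CPM in 5 healthy libraries and at 16.4 in spleen of run 2, the library with the most lymphocyte marker UMIs, and the part of those cells in its level was not tested. Evl was the 1 member left out of the test by the filter on low counts.

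Some members differed more between runs than between tissues. Actg1, gamma actin, stood at 49.3, 41.0 and 49.5 CPM in blood, bone marrow and spleen of run 1 but at 2876, 2516 and 2939.6 in run 2. Capza1, a subunit of the filament capping protein, stood at 65.2 to 77.8 CPM in run 1 and 214 to 235 in run 2, while its paralog Capza2 stood at 219 to 272 and 283 to 313, and Myl6, a light chain of myosin II, at 821 to 938 and 1767 to 1994. Of the 38 members tested, 5 (Actg1, Capza1, Dstn, Marcks and Myl6) were past 2-fold higher in run 2 and 0 past 2-fold lower, against 513 and 204 of 7667 genes. Mouse pool, mouse age (6 weeks in run 1 and 8 in run 2 by the study's methods), capture and version of the counting software changed together between runs and cannot be told apart. The run was a term in the test, so that tissues were compared within runs, and without Actg1 the share of the remaining members was 8.62% and 7.92% in blood and 6.64% and 6.61% in bone marrow.

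Several actin and cytoskeleton genes are known targets of serum response factor, which binds the CArG box. This 10-base motif was searched as CC and GG around a core of A or T bases. The pattern is the same on both strands, though a single match need not be. Promoter windows of RefSeq (build GRCm38.p6, from 250 bases before to 50 after the start site) were found for 36 of the 39 members; Actb, Lsp1 and Marcks had no entry. In the 250 bases before the start site 4 of the 36 members held the motif (11.1%), against 439 of 27025 genes (1.62%), and of 60 other genes of the actin pathway with a window 0 held it. They are shown because they place the motif in members of 4 roles, an actin, a subunit of Arp2/3, a myosin light chain and vinculin. The motif is in capitals, 5′ to 3′ on the strand of the gene, with up to 10 bases on each side:
Actg1, chr11:120348566-120348595, minus strand: ggaaagatcgCCATATATGGacatgttctg
Myl6, chr10:128493040-128493069, minus strand: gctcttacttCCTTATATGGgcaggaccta
Vcl, chr14:20929161-20929190, plus strand: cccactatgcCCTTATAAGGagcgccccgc
Arpc4, chr6:113377863-113377882, plus strand: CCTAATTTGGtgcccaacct
The motif began 90 bases before the RefSeq start site of the window for Actg1, 50 for Myl6, 227 for Vcl and 250 for Arpc4. Start sites differ between annotations. From the 5′ end of the GENCODE gene model the motif began 43 bases before Actg1, 227 before Vcl and 252 before Arpc4, but 1086 bases inside Myl6, where the window is 1 of 2 for that gene and belongs to an inner start site. Binding was not measured in these data, and a motif match is a description of the letters only. From blood to bone marrow the log2 fold changes of these genes were 1.31 for Vcl, 0.58 for Arpc4, 0.28 for Myl6 and 0.06 for Actg1, whose CPM was lower in bone marrow than in blood of both runs before the library sizes were scaled by TMM factors. Vcl passed the test in that comparison (edgeR), and whether it differed from the others was not tested.

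Between bone marrow and blood 9 of the 38 members tested changed, 3 higher and 6 lower in bone marrow. All 4 linkers of actin to the membrane were lower in bone marrow, Marcks by the most, whereas destrin, thymosin beta 10 and vinculin were higher. As a share the 9 members (23.7%) were near the background, since 22.1% of 7667 genes were called in this comparison, 10.1% higher and 12.0% lower. The median log2 fold change was 0.05 over the members and 0.03 over all genes. Fold changes are on the scale of TMM factors, which were 1.15 and 1.05 in blood and 0.956 and 0.853 in bone marrow. Log2 fold changes from blood to bone marrow therefore lie above the log2 ratios of the CPM printed beside them. The comparison asks how neutrophils that have left the marrow differ from those still in it.

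Among the membrane linkers, Marcks, which binds acidic lipids of the plasma membrane and crosslinks actin, stood at 517 and 778 CPM in blood, 41.9 and 75.9 in bone marrow, with 167 and 762.1 in spleen. Both bone marrow libraries were far below all others, and spleen of run 1 lay between bone marrow and blood. The log2 fold change from blood to bone marrow was -3.23 ± 0.326 (SE; edgeR adjusted p = 0.00243). Its paralog Marcksl1 stood at 318 and 277 CPM in blood, 149.8 and 136 in bone marrow, with 199 and 317 in spleen, a log2 fold change of -0.77 ± 0.213 (SE; edgeR adjusted p = 0.0413). Ezrin and moesin belong to the ERM proteins, which clip filaments to membrane receptors. Ezr stood at 161 and 197 CPM in blood, 71.1 and 64.5 in bone marrow, with 107 and 207 in spleen. Its change was -1.11 ± 0.225 on the log2 scale (SE; edgeR adjusted p = 0.016). Msn stood at 468 and 507 CPM in blood, 188 and 241 in bone marrow, with 237 and 528 in spleen. Its change was -0.92 ± 0.232 (SE; edgeR adjusted p = 0.0318). For all 4 linkers the bone marrow libraries lay below both blood libraries, and spleen of run 2 lay within 1.5-fold of blood of its run.

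Among the other groups, Lsp1, a leukocyte protein that bundles filaments, stood at 1730.1 and 1554 CPM in blood, 718 and 652 in bone marrow, with 985 and 1424 in spleen, and was lower in bone marrow (log2 fold change -0.98 ± 0.224, SE; edgeR adjusted p = 0.0231). The plastin Lcp1 had a like profile, at 1539 and 1717 CPM in blood, 736 and 857 in bone marrow, with 883 and 1709 in spleen, but missed the threshold (edgeR adjusted p = 0.0543). Wipf1, the partner that stabilises WASP, stood at 130.1 and 158 CPM in blood, 58.2 and 71.5 in bone marrow, with 64.8 and 160.5 in spleen (log2 fold change -0.87 ± 0.227, SE; edgeR adjusted p = 0.0355), while WASP itself (Was) stood at 49.998 and 61.5 CPM in blood, 40.0 and 42.1 in bone marrow, with 38.3 and 58.3 in spleen and was not called.

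The 3 members that were higher in bone marrow belonged to filament turnover, the monomer store and integrin linkage. Dstn, destrin, a relative of cofilin that severs filaments, stood at 58.1 and 164 CPM in blood, 188 and 785 in bone marrow, with 184 and 266 in spleen. Each bone marrow library was above the blood library of its run, but blood of run 2 came near bone marrow of run 1 (log2 fold change 2.31 ± 0.464, SE; edgeR adjusted p = 0.0155). Its log2 fold change was 1.48 without bone marrow of run 2 and 2.88 without bone marrow of run 1. Its abundant paralog Cfl1, cofilin 1, stood at 1471 and 1533 CPM in blood and 1339.8 and 1476 in bone marrow and was not called. Tmsb10, thymosin beta 10, stood at 582 and 245 CPM in blood, 892 and 676 in bone marrow, with 603 and 657 in spleen (log2 fold change 1.30 ± 0.294, SE; edgeR adjusted p = 0.0226), whereas Tmsb4x was not called. Vcl, vinculin, was low throughout, at 43.4 and 17.5 CPM in blood, 56.3 and 53.4 in bone marrow, with 42.8 and 28.6 in spleen (log2 fold change 1.31 ± 0.342, SE; edgeR adjusted p = 0.0353). Without bone marrow of run 2 its log2 fold change was 0.68, and without that of run 1 it was 1.85. Talin (Tln1), which opens integrins and recruits vinculin, stood at 176 and 186 CPM in blood, 135 and 171 in bone marrow, with 148 and 198 in spleen and was not called.

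**Figure D2:**
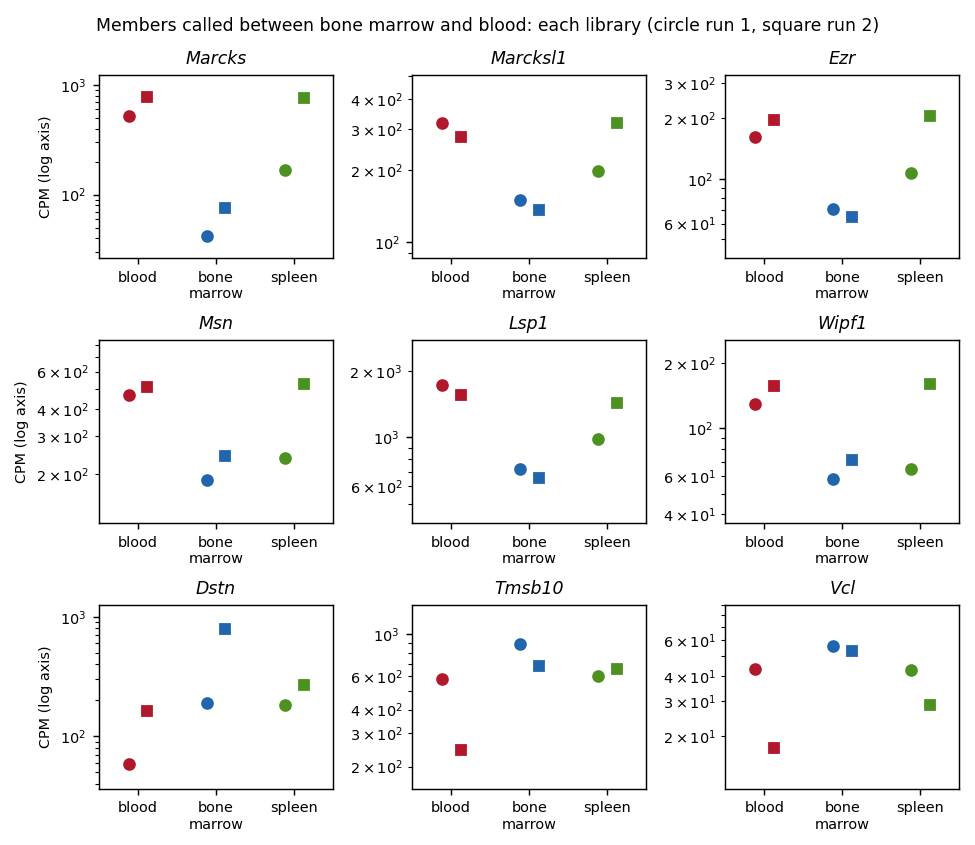
Level of each of the 9 members called between bone marrow and blood, in CPM on a log axis, by tissue, with 1 point per library (circle run 1, square run 2). Marcks stands at 517 and 778 CPM in blood and at 41.9 and 75.9 in bone marrow, and for the 6 genes lower in bone marrow the spleen library of run 1 lies between bone marrow and blood of its run.

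Several members that were not called between healthy tissues are given with their values because they stood apart at inflamed sites. Gsn, gelsolin, stood at 559 and 588 CPM in blood against 339.8 and 322 in bone marrow, and spleen at 376 and 476. Both blood libraries were above all others, at an edgeR adjusted p of 0.127 between bone marrow and blood. Vasp stood at 609 and 652 CPM in blood against 763 and 745 in bone marrow, and spleen at 797 and 673, and Flna at 218 and 176 against 257 and 250.2 and 239 and 195. Lasp1 stood at 158 and 122 CPM in blood against 154 and 159 in bone marrow, and spleen at 134 and 106. Myh9 stood at 168 and 199.9 CPM in blood against 133 and 201 in bone marrow, and spleen at 192 and 175, and its libraries overlapped between tissues. Of the Arp2/3 subunits, log2 fold changes from blood to bone marrow ran from -0.12 (Arpc1b) to 0.81 (Actr3), with Arpc2, Arpc3, Arpc4, Arpc5 and Actr2 between them. The capping protein subunits Capza1, Capza2 and Capzb ran from -0.10 to 0.35, the turnover proteins Cap1, which recycles actin monomers, and Wdr1, the cofactor of cofilin, were at -0.02 and 0.79, and the myosin light chains Myl6, Myl12a and Myl12b were at 0.28, 0.48 and -0.07.

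Of the 38 members tested, no actin, capping protein subunit or subunit of myosin II was called between healthy tissues, nor were Gsn and Vasp, and of the Arp2/3 group only Wipf1 was. Over the 29 tested members that were not called between bone marrow and blood, log2 fold changes ran from -0.75 (Lcp1) to 0.81 (Actr3). The 9 calls rested on both blood libraries. Without blood of run 1 or without blood of run 2, 0 members passed (edgeR; 6 and 8 at an unadjusted p under 0.05), and 58 and 0 genes passed in all. Without bone marrow of run 1 or run 2, 6 and 2 members passed (15.4% and 5.13% of those tested, against 20.6% and 12.6% of all genes), and without spleen of run 1 or run 2, 13 and 14 (33.3% and 36.8%, against 29.4% and 30.8%). With the run left out of the model 0 members passed (7 at an unadjusted p under 0.05), with 201 of 7667 genes. DESeq2 called 10 members (26.3%, against 15.4% of all genes), 8 of the 9 and in addition Actr3 and Lcp1, while Wipf1 missed its threshold (adjusted p = 0.0578). Wipf1 was also lost under a filter on mitochondrial UMIs and gene number (edgeR adjusted p = 0.0787), as was Msn (log2 fold change -0.75, edgeR adjusted p = 0.0556), and in cells without a lymphocyte marker UMI (edgeR adjusted p = 0.0679). No fold change of the 9 turned direction in any of these fits.

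Bone marrow holds many neutrophils that still make secondary granule proteins. Cells with Camp, Ngp, Ltf and Lcn2 together under 1% of UMIs were 87.1% and 98.5% of kept cells in blood, 24.7% and 35.6% in bone marrow, with 52.0% and 95.9% in spleen. Among these cells alone, Marcks stood at 707 and 812 CPM in blood, 147 and 221 in bone marrow, with 631 and 876 in spleen, and Ezr at 201 and 202, 85.7 and 56.1, and 229 and 227 in the same order. In these cells Marcks and Ezr were again called as lower in bone marrow than in blood (log2 fold change -1.74 and -1.26; edgeR adjusted p = 0.000736 and 0.00349) and Dstn and Tmsb10 as higher (1.73 and 1.61; edgeR adjusted p = 0.000492 and 0.0265). The calls of Lsp1 (log2 fold change -0.24), Wipf1 (-0.38), Msn (-0.58), Marcksl1 (-0.37) and Vcl (0.82) were lost, with edgeR adjusted p = 0.533, 0.27, 0.11, 0.334 and 0.13. In all 8 members were called (21.1%, against 10.6% of all genes), as Wdr1, Arpc5, Flna and Lasp1 passed the test as higher in bone marrow (log2 fold changes of 0.74, 0.77, 0.67 and 0.87, against 0.79, 0.58, 0.66 and 0.48 in all kept cells; edgeR adjusted p = 0.0273, 0.0464, 0.046 and 0.0204). Lcp1, at 1869 and 1759 CPM in blood against 1390.2 and 1382 in bone marrow of these cells, had a log2 fold change of -0.08. This fold change, after scaling by TMM factors, is smaller than the gap in CPM.

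**Figure D3:**
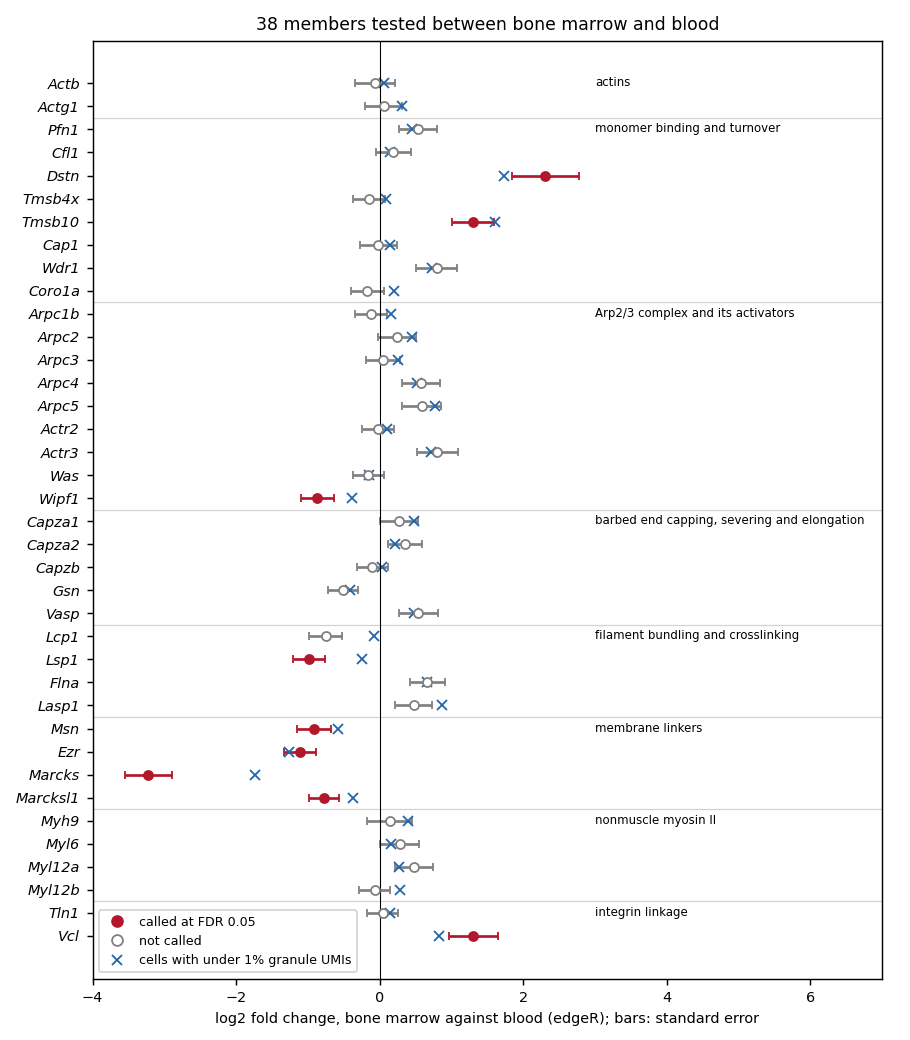
Log2 fold change of the 38 members tested, bone marrow against blood (horizontal axis, edgeR, bars are standard errors), grouped by role, with filled points for the 9 called at an FDR of 0.05 and crosses for the fit to cells with under 1% of UMIs from secondary granule genes. The 4 membrane linkers lie to the left of 0 in both fits, and Lsp1 moves from -0.98 to -0.24.

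Between spleen and blood 0 of the 38 members were called by edgeR (2 at an unadjusted p under 0.05, Dstn and Tmsb10), and DESeq2 also called 0; 0.0522% of all genes were called. Without spleen of run 2, 2 members were called, Marcks lower and Dstn higher in spleen, with 5.31% of all genes. Between spleen and bone marrow 1 of 38 members was called, where 2.75% of all genes were. This was Marcks, higher in spleen (log2 fold change 2.54 ± 0.319, SE; edgeR adjusted p = 0.0178). Its call was lost without either blood library or without the run in the model, and its fold change stayed between 1.99 and 3.00 when 1 library was left out. The spleen libraries lay far apart for these genes, that of run 1 with a granule gene share near bone marrow and that of run 2 with one near blood, and the part of this in the missing calls was not tested. Among cells with under 1% of granule UMIs, log2 fold changes of the 38 members between spleen and blood ran from -0.28 to 0.68, and 6 members were called between spleen and bone marrow (Marcks and Ezr higher in spleen, Dstn, Flna, Lasp1 and Wdr1 lower), which is 15.8% of the members tested, where 8.73% of 5992 genes were called.

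Of 77 other genes of the pathway, 69 were tested. Between bone marrow and blood 6 were higher and 12 lower in bone marrow (26.1% of those tested, against 22.1% of all genes), and 0 were called in the contrasts of spleen with blood and with bone marrow by edgeR (8 at an unadjusted p under 0.05 between spleen and blood and 9 between spleen and bone marrow). DESeq2 called 13, 0 and 1 of them in the same order of contrasts. Of the groups given here, 2 of 13 WAVE subunits, formins and nucleators tested were called, 3 of 8 kinases and phosphatases and 10 of 29 other actin binding proteins. The largest changes were those of Abi3, a WAVE complex subunit (27.6 CPM on average in blood and 5.03 in bone marrow, log2 fold change -2.17, edgeR adjusted p = 0.0075), Capg, a capping protein (144 and 444 CPM, 2.12, adjusted p = 0.0206), Swap70 (17.2 and 3.77 CPM, -1.89, adjusted p = 0.0236), Ssh2, a slingshot phosphatase that activates cofilin (290.3 and 69.2 CPM, -1.82, adjusted p = 0.00949), and Coro7, a coronin (7.65 and 21.0 CPM, 1.81, adjusted p = 0.0115).

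The inflamed conditions were compared with healthy blood of the same capture, as ratios of CPM without a test, since each was 1 pool of mice in 1 library. Members at 50 CPM or more on average over the pair of conditions were counted, 37 of 39 for each condition, and 2-fold was the limit. The ratio scale matters here. The median gene at that level had a log2 CPM ratio to healthy blood of -0.30 in arthritic blood, -0.32 in the joint, -0.68 in the lung and -0.69 in the peritoneum, and the shift that TMM factors take off all ratios was -0.46, -0.56, -0.90 and -0.91. Ratios are therefore given on the CPM scale and, where named as such, relative to the median gene. The median log2 CPM ratio of the members was -0.07, -0.07, -0.18 and -0.17 in the same order, that is 0.23, 0.25, 0.49 and 0.52 above the median gene.

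In arthritic blood 0 of 37 members were past 2-fold, where 0.665% of 2405 genes were higher and 2.04% lower. Relative to the median gene it was again 0 members, against 1.62% of genes higher and 0.166% lower. Log2 CPM ratios of the members ran from -0.46 to 0.54. In the arthritic joint 3 members were past 2-fold higher and 1 lower, against 11.3% and 17.6% of 2497 genes. Relative to the median gene 4 members were higher and 0 lower, against 15.4% and 8.65% of genes. In the lung 2 members were higher and 5 lower, against 14.6% and 39% of 2337 genes, or 9 and 2 relative to the median gene, against 24.7% and 19.0%. In the peritoneum 5 members were higher and 5 lower, against 15.5% and 39.8% of 2324 genes, or 10 and 1 relative to the median gene, against 24.5% and 18.1%. The members past 2-fold higher only on that second scale were Arpc3 in the joint, Marcks, Actg1 and Vasp in the lung, Cfl1 in the peritoneum, and Actr3, Capza2, Capzb and Wdr1 at both IL-1β sites. On the CPM scale 15 of 37 members (40.5%) passed 2-fold at 1 lavaged site or more, against 67.2% of the 2140 genes counted at all 3. Marcksl1 was past 2-fold higher at all 3, 1 of 37 members (2.70%), against 5.70% of those genes, and 0 members were past 2-fold lower at all 3, against 14.3%. Relative to the median gene 14 of 37 members (37.8%) passed at 1 lavaged site or more, against 54.4% of those genes. On that scale 2 members, Marcksl1 and Actg1, were higher at all 3 (5.41%, against 9.81%), and 0 were lower at all 3, against 5.09%.

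The membrane linkers, with the widest ratio of any member, come first. Marcksl1 stood at 140 CPM in healthy blood and 115 in arthritic blood, 854 in the joint, 1945 in the lung and 4577 in the peritoneum. The lavaged sites were thus 6.12-fold (95% interval from counting 5.22 to 7.21), 13.9-fold (11.9 to 16.5) and 32.8-fold (28.0 to 38.7) above healthy blood. Marcks stood at 1575 CPM in healthy blood, 1225 in arthritic blood, 1208 in the joint, 2047 in the lung and 4475.5 in the peritoneum, which was 1.30-fold (1.22 to 1.38) higher in the lung and 2.84-fold (2.69 to 3.00) higher in the peritoneum. The ratio of Marcksl1 to Marcks CPM was 0.0886 in healthy blood, 0.094 in arthritic blood, 0.707 in the joint, 0.95 in the lung and 1.02 in the peritoneum. The paralogs were thus within 1.5-fold of each other in the lavaged sites and far apart in both bloods of this capture. In healthy blood of runs 1 and 2, captured apart from these, the ratio was 0.615 and 0.356, with Marcksl1 at 318 and 277 CPM. Msn stood at 693, 506, 613, 459.5 and 578 CPM and Ezr at 256, 254, 262, 232 and 285 in the same order, and neither passed 2-fold. Because other cell types also express Marcksl1, their markers are given here. The 11 markers of monocytes or macrophages summed to 283 CPM in healthy blood, 336 in arthritic blood, 301 in the joint, 296 in the lung and 389 in the peritoneum, with 7, 7, 11, 7 and 8 of them detected. At 0 were Ccr2, C1qb, C1qc and F13a1 in healthy blood, Ccr2, C1qa, F13a1 and Cx3cr1 in arthritic blood, Ccr2 and the 3 C1q genes in the lung, and Ccr2, C1qa and C1qc in the peritoneum. B cell markers summed to 210 CPM in healthy blood, 125 in arthritic blood, and 22.7 to 51.5 in the lavaged sites. The part of these cells in the levels of Marcksl1 was not tested.

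**Figure D4:**
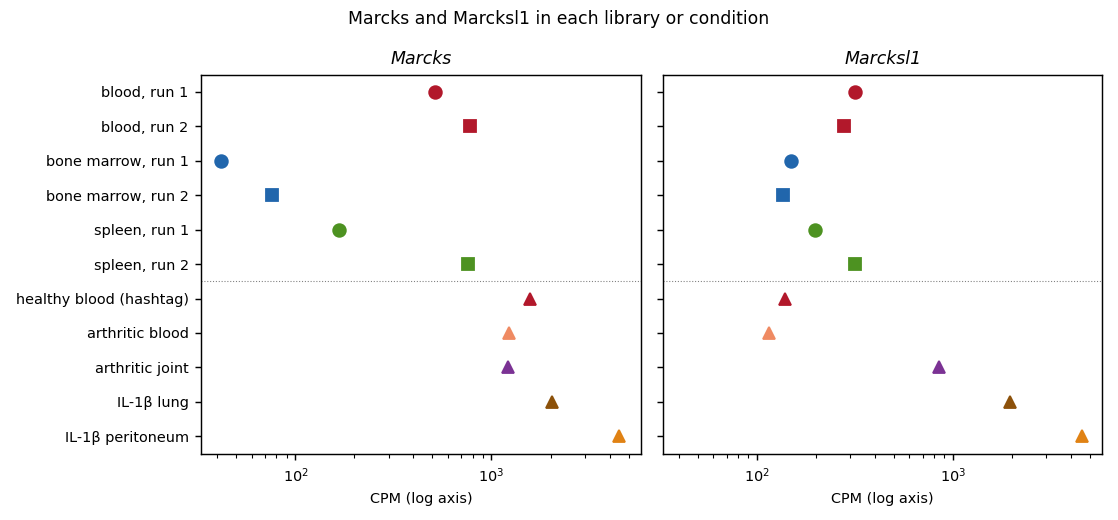
Level of Marcks (left) and Marcksl1 (right) in each library or condition, in CPM on a shared log axis, with circles for run 1, squares for run 2 and triangles for the hashtag conditions. Bone marrow is lowest for Marcks (41.9 and 75.9 CPM), and Marcksl1 stands at 140 CPM in healthy blood of the hashtag capture and at 854 in the joint, 1945 in the lung and 4577 in the peritoneum.

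Of the actins and the monomer store, Actg1 was higher and Tmsb4x lower on the CPM scale at the lavaged sites. Actb, on the CPM scale, stayed within 1.5-fold of healthy blood, at 16962 CPM in healthy blood, 15812 in arthritic blood, 17390.4 in the joint, 15596 in the lung and 15637 in the peritoneum. Actg1 stood at 2549, 3254, 6459, 4989 and 5142 CPM in the same order, which was 2.53-fold (2.44 to 2.63), 1.96-fold (1.87 to 2.05) and 2.02-fold (1.93 to 2.11) above healthy blood in the joint, lung and peritoneum. Tmsb4x stood at 33317 CPM in healthy blood, 28136 in arthritic blood, 15399 in the joint, 12915 in the lung and 16746 in the peritoneum, and its ratio to healthy blood was 0.462 (0.457 to 0.467) in the joint and 0.388 (0.381 to 0.395) in the lung. Relative to the median gene Tmsb4x was lower by less than 2-fold at these sites (log2 -0.80 and -0.69). The 2 actins gave 25.4% of the members' UMIs in healthy blood and 38.5%, 37.2% and 30.8% in the joint, lung and peritoneum, and the group of monomer binding and turnover, led by Tmsb4x, gave 50.9% and then 33.3%, 32.0% and 33.4%. Tmsb10 stood at 89.8, 85.8, 67.5, 55.3 and 54.1 CPM in healthy blood, arthritic blood, joint, lung and peritoneum.

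Among the proteins that take filaments apart, Dstn set the IL-1β sites apart. It stood at 106 CPM in healthy blood, 153 in arthritic blood, 119 in the joint, 546 in the lung and 645 in the peritoneum, that is 5.16-fold (4.24 to 6.32) and 6.10-fold (5.00 to 7.48) above healthy blood in the last 2. Cfl1 stood at 896, 853, 1041, 879 and 1491 CPM in the same order and did not pass 2-fold on the CPM scale. Coro1a stood at 1977 CPM in healthy blood, 1882 in arthritic blood, 1422 in the joint, 1070.3 in the lung and 907 in the peritoneum, past 2-fold lower in the peritoneum (ratio 0.459, 0.423 to 0.497), but not relative to the median gene (log2 -0.44). Pfn1 stood at 2007, 1854, 1962, 1594 and 2031 CPM in the same order.

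WASP was low at both IL-1β sites. Was stood at 98.7 CPM in healthy blood, 75.7 in arthritic blood, 56.1 in the joint, 19.7 in the lung and 24.4 in the peritoneum (26 and 23 UMIs in the last 2), with ratios of 0.199 (0.125 to 0.308) and 0.247 (0.151 to 0.39), and it passed 2-fold lower on both scales. Wipf1 stood at 247 CPM in healthy blood, 225 in arthritic blood, 256 in the joint, 171 in the lung and 97.6 in the peritoneum, with a ratio of 0.395 (0.308 to 0.502) in the peritoneum. The 7 subunits of the Arp2/3 complex themselves stayed within 2-fold of healthy blood on the CPM scale at each site, and relative to the median gene Arpc3 in the joint and Actr3 in the lung and in the peritoneum were past 2-fold higher. On the CPM scale Arpc1b was the farthest, at 1402 CPM in healthy blood, 1330.0 in arthritic blood, 986 in the joint, 703 in the lung and 979 in the peritoneum.

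At filament ends, Vasp, which speeds the growth of filaments at the leading edge, stood at 545, 525, 708, 802 and 1770.5 CPM in healthy blood, arthritic blood, joint, lung and peritoneum, and was 3.25-fold (2.96 to 3.57) above healthy blood in the peritoneum. Gsn, gelsolin, which severs and caps filaments when calcium rises, stood at 336, 351, 456, 181 and 132 CPM in the same order, with a ratio of 0.391 (0.317 to 0.481) in the peritoneum. Evl had 3 UMIs in the joint and was at 0 in the other 4 conditions, which allows up to 3 UMIs in each.

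Of the 4 bundling and crosslinking proteins, Lsp1 and Flna were below healthy blood at all 3 lavaged sites on the CPM scale, and Lasp1 was above it in the joint and below it in the lung and peritoneum. Lcp1, the most abundant of them, stood at 2128, 2354, 1830.1, 1994 and 2298 CPM in healthy blood, arthritic blood, joint, lung and peritoneum and did not pass 2-fold on either scale. Lasp1, which binds actin at focal contacts, stood at 144 CPM in healthy blood, 163 in arthritic blood, 418 in the joint, 87.1 in the lung and 75.3 in the peritoneum, so that the joint was 2.90-fold (2.48 to 3.42) above healthy blood and the IL-1β sites were below it. Lsp1 stood at 1703, 1529, 880.1, 474 and 860.3 CPM in the same order, with a ratio of 0.278 (0.254 to 0.305) in the lung, and was past 2-fold lower there on both scales. Flna, filamin A, stood at 328, 347, 193, 115 and 206 CPM, with a ratio of 0.351 (0.288 to 0.425) in the lung, and Tln1 at 361, 317, 230.4, 126 and 205 CPM, with a ratio of 0.35 (0.291 to 0.42) there. Myh9, the heavy chain of nonmuscle myosin II, stood at 605, 576, 543, 338 and 301 CPM, with a ratio of 0.498 (0.432 to 0.573) in the peritoneum. Relative to the median gene Flna, Tln1, Myh9, Gsn and Wipf1 did not pass 2-fold at these sites. Vcl stood at 34.7, 30.8, 18.7, 18.2 and 28.6 CPM in the same order, below the limit for counting.

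**Figure D5:**
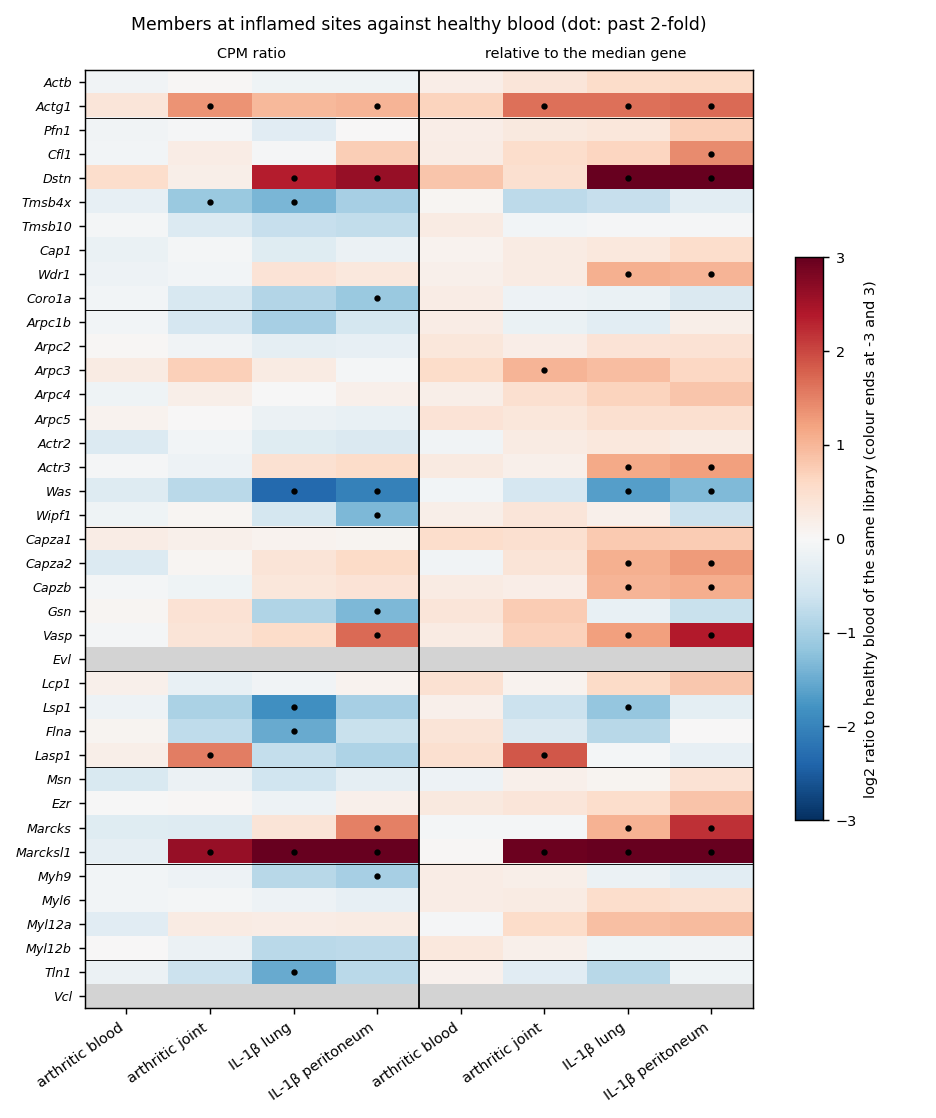
Log2 ratio of each member to healthy blood of the same capture at each inflamed condition (colour, from -3 to 3), as CPM ratios in the left 4 columns and relative to the median gene in the right 4, with members grouped by role. Dots mark members past 2-fold and grey marks those under 50 CPM. Marcksl1 is past 2-fold at all 3 lavaged sites on both scales, and Actg1 at all 3 only relative to the median gene. Dstn and Was are past it at both IL-1β sites only, and Lasp1 in the joint only.

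Cells with under 1000 UMIs changed few of these ratios. Without them Actg1 in the peritoneum no longer passed 2-fold, Arpc1b in the lung and Tmsb4x and Lasp1 in the peritoneum did, all 3 lower, and the share of the 39 genes was 8.14% in healthy blood, 7.15% in arthritic blood, 6.22% in the joint, 5.69% in the lung and 6.92% in the peritoneum.

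The sites were also set against each other. Between joint and blood of the arthritic mice the median gene did not shift (log2 ratio -0.003), and 2 of 37 members were past 2-fold higher and 0 lower, against 14.4% and 7.45% of 2269 genes. These were Marcksl1 at 7.42-fold (6.62 to 8.33) and Lasp1 at 2.57-fold (2.33 to 2.84). Between IL-1β peritoneum and IL-1β lung, 3 of 36 members were past 2-fold higher in the peritoneum and 0 lower, against 7.81% and 6.08% of 1843 genes. These were Marcksl1 at 2.35-fold (2.24 to 2.47), Vasp at 2.21-fold (2.04 to 2.39) and Marcks at 2.19-fold (2.08 to 2.30). The 2 IL-1β sites differed in how many cells held granule genes, with 91.3% of lung cells and 61.3% of peritoneal cells under 1% of UMIs from them.

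Of the other pathway genes at 50 CPM or more, 0 were past 2-fold higher and 1 lower in arthritic blood (Gmfb, 71.1 CPM in healthy and 30.4 in arthritic blood), 2 higher and 5 lower of 55 in the joint, 2 higher and 25 lower of 53 in the lung, and 3 higher and 21 lower of 52 in the peritoneum. Over all genes the shares past 2-fold higher and lower were 11.3% and 17.6% in the joint, 14.6% and 39% in the lung and 15.5% and 39.8% in the peritoneum. Relative to the median gene, the pathway counts were 0 higher and 0 lower in arthritic blood, where Gmfb no longer passed, 4 higher and 2 lower in the joint (15.4% and 8.65% of all genes), 7 and 13 in the lung (24.7% and 19.0% of all genes) and 9 and 8 in the peritoneum (24.5% and 18.1%). On the CPM scale the widest in the joint were the Rac inactivator Arhgap15 (400.04 CPM in healthy blood and 85.2 in the joint), the adducin Add3 (131 and 31.5), Capg (57.8 and 157), Ssh2 (889 and 365) and the coronin Coro1c (62.2 and 144). In the lung, those among the widest 5 that are given here were the kinase Stk10 (129.8 CPM in healthy blood and 12.9 in the lung), the myosin Myo1f (419 and 66.6), Add3 (131 and 22.7) and the exchange factor Dock8 (122 and 21.2). In the peritoneum they were the twinfilin Twf2 (136 CPM in healthy blood and 15.9 in the peritoneum), the WAVE subunit Cyfip1 (32.0 and 259), the Rac inactivator Arhgap25 (172 and 28.6) and Ssh2 (889 and 152).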

How the data were processed

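Single neutrophils were measured by 10x Genomics 3' RNA sequencing. Per the labels and the study's methods the authors aligned reads to mm10 with Cell Ranger, in a different version for each run, and deposited raw UMI counts per gene and cell; counts of the inflamed capture cover the cells with a hashtag condition. A deposited table gives each of these cells a condition and a reference cell type. The methods give v2 chemistry for healthy tissues and v3 for inflamed ones, while the labels list versions 1 to 3 without assigning them. Healthy and inflamed captures are therefore not compared, tissues are tested within runs, and levels of the 2 healthy runs are set side by side as a description only.

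Healthy cells were kept at 3% or more of UMIs from S100a8 and S100a9, and inflamed cells where the reference type was a neutrophil. No doublet caller was run, and free RNA was not corrected. Counts were summed over kept cells, and CPM is per 1000000 of all UMIs. Healthy tissues were compared with edgeR 4.0.16 (R 4.3.3), by its quasi-likelihood test over 7667 genes of 6 libraries with TMM factors, filterByExpr and the run as a block. Genes were called at a Benjamini-Hochberg FDR of 0.05. Standard errors are the fold change divided by the root of the F statistic. Pools of mice were the replicates, never cells. In the labels the replicate number marks the run that the tissues share, by the study's methods each run took every tissue from 1 pool of mice, and deviations from tissue means correlated between tissues of a run (Pearson r = 0.524, 0.469 and 0.578 over 7613 genes), so the runs pair the samples. DESeq2 1.42.0, RLE factors, other cell filters and leaving out each library were alternatives. The script for edgeR was tested on simulated data. Inflamed conditions have 1 pool each and no test; intervals of ratios (exact, conditional binomial) and of shares cover counting error only.

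The 39 members, the lists of pathway and marker genes and the tests were chosen with earlier results of these data known. Values in every library are given for members called in a healthy contrast, for members past 2-fold at an inflamed site and for the 5 with the highest mean CPM; of other pathway genes, at most 5 per contrast or site with the largest change are named. 1 group of pathway genes, and 1 gene of it among those largest in the lung and peritoneum, are not reported here. Other members are named as paralogs of these or after their values were seen. 2 symbols of the pathway list (Arhgap45 and Washc4) matched no row. Paralogs with alike sequence (Actb and Actg1, Myl12a and Myl12b) may share reads. Comparisons of joint with arthritic blood and of peritoneum with lung, and the scale relative to the median gene, were added after the data were seen.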

Additional observations from a re-analysis of the deposited data

Results flagged for a closer look

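Evl was listed at 222 CPM (921 UMIs) in the cells of the run 2 spleen that fell below the limit on S100a8 and S100a9 and entered no comparison, against 16.4 CPM in the kept cells of the same library. In the cells left out of the other healthy libraries it was at 20.0 to 259 CPM. It was brought up as a signal in cells that no comparison used. No test compared these cells.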

How the results depend on the processing

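Of the 9 members called between bone marrow and blood and Marcks between spleen and bone marrow, no fold change turned direction under any alternative. Without the replicate block the members called were 0 between bone marrow and blood and 0 between spleen and bone marrow. Leaving out 1 library gave 0 to 14 members called between bone marrow and blood, 0 to 2 between spleen and blood and 0 to 5 between spleen and bone marrow. All calls between bone marrow and blood were lost without either blood library, and 6 and 2 members were called without bone marrow of run 1 and run 2. In these fits the lone sample of a tissue is assumed to vary like the other tissues. Within each contrast, more members were called in the fits where a larger share of all genes was called. The spread of these counts is therefore not particular to the members. Msn lost its call under the filter on mitochondrial UMIs and gene number, and Wipf1 lost its call there, with DESeq2 and in cells without a lymphocyte marker UMI. Without the low count filter 2 members were called between spleen and bone marrow (5.13%, against 4.83% of 9105 genes). In cells with few granule UMIs 6 were called (15.8%, against 8.73% of 5992 genes).

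Leaving out 1 run gave tissue mean shares of 8.21% to 8.62% in blood, 6.65% to 6.86% in bone marrow and 7.05% to 7.66% in spleen. Mean shares moved to 8.96%, 7.86% and 8.72% (blood, bone marrow, spleen) in cells with few granule UMIs, to 10.8%, 10.5% and 10.0% without S100a8 and S100a9 in the total, and to 8.87%, 7.35% and 8.20% as the mean of the cells' own shares. The bone marrow mean was 6.99% after the filter on mitochondrial UMIs and gene number and 6.96% in cells without a lymphocyte marker UMI. The last filter, the share without Actg1, the scale relative to the median gene and the limit of 1000 UMIs were chosen after seeing the data.

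In healthy blood, arthritic blood, joint, lung and peritoneum of the inflamed capture, shares were 8.91%, 9.32%, 7.37%, 6.67% and 8.11% without S100a8 and S100a9, where the order of the bloods turned, 6.47%, 6.43%, 6.06%, 4.93% and 6.06% as means of cells, and 8.14%, 7.15%, 6.22%, 5.69% and 6.92% in cells with 1000 or more UMIs. Members past the limit in the lung were 13 with TMM factors and 11 relative to the median gene (35.1% and 29.7% of members, 42.8% and 43.7% of all genes), against 7; at a limit of 1.5-fold they were 9 in the joint, 16 in the lung and 18 in the peritoneum (24.3%, 43.2% and 48.6% of members, against 53.2%, 73.6% and 73.5% of all genes). With TMM factors 1 member (Was) stayed past 2-fold lower in the lung and in the peritoneum. Depth limits Was (26 and 23 UMIs there) and Evl. The causes of these shifts were not tested.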

Other observations

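Other paralog pairs than Marcks and Marcksl1 also had unequal levels across sites. The ratio of Myl12b to Myl12a CPM, 2 regulatory light chains of myosin II, was 3.41 in healthy blood of the hashtag capture, 4.32 in arthritic blood, 2.57 in the joint, 1.67 in the lung and 1.66 in the peritoneum. In the healthy runs it was 1.97 and 1.46 in blood against 1.17 and 1.13 in bone marrow, with spleen at 1.09 and 1.47. The ratio of Actg1 to Actb was 0.15 in healthy blood, 0.206 in arthritic blood, 0.371 in the joint, 0.32 in the lung and 0.329 in the peritoneum. The ratio of Ezr to Msn stayed between 0.267 and 0.45 over the healthy libraries and between 0.369 and 0.504 over the hashtag conditions. These are values with no test.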
